A study of Mus musculus with 8 samples.

Results

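The proteasome subunits are described here as every probe set of the array that is annotated to a single gene whose symbol is Psma, Psmb, Psmc, Psmd or Psme followed directly by a digit. The rule took 91 of 45037 probe sets, for 44 of 18193 genes. It also takes Psmc3ip and Psme3ip1, whose products are named after a subunit and are not subunits themselves, and it misses Psme2, because the 1 probe set that names Psme2 is annotated to several genes, so Psme2 was not analysed here. After probe sets of low intensity were left out, 77 of the 91 probe sets and 43 of the 44 genes were tested. The gene left out was Psmb11, known from the thymus, whose probe set measured 39.6 on average in Pemt-/- and 54.9 in Pemt+/+.

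Gene expression was measured with Affymetrix arrays in whole liver of Pemt-/- mice and of their Pemt+/+ controls, all fed high fat-high sucrose (HFHS) chow. Pemt encodes phosphatidylethanolamine N-methyltransferase, which makes phosphatidylcholine from phosphatidylethanolamine, and it is deleted in the knockout. Each genotype had 4 arrays, 1 for each of weeks 1, 2, 3 and 4 of the diet. The animals of the study were male, and neither their age when these livers were taken, nor their strain is stated in the sources used here. The study's methods list 4 mice of each genotype and livers taken at each of the weeks, and do not tie mice to arrays. No group on standard chow was analysed here, so the diet is common to every array and its own effect cannot be seen. In whole liver, fewer cells of a type and less RNA per cell cannot be told apart.

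The proteasome degrades proteins that carry ubiquitin chains. Its barrel-shaped 20S core is built of rings of alpha subunits (Psma genes), which form the gate, and beta subunits (Psmb genes), of which Psmb5, Psmb6 and Psmb7 encode the constitutive proteolytic ones. The 19S regulator caps the core, with a ring of ATPases (Psmc genes) that unfold the substrate and non-ATPase subunits (Psmd genes) that bind and deubiquitinate it. In immune cells and in cells exposed to interferon gamma, the proteolytic subunits are replaced by those of the immunoproteasome (Psmb8, Psmb9 and Psmb10), and the activator encoded by Psme1 and Psme2 can take the place of the cap, which changes the peptides offered to MHC class I molecules.

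The values are linear intensities that the authors had scaled to the same trimmed mean, 500.0, on all 8 arrays. Their upper quartiles were 384 to 425 in Pemt-/- and 363 to 370 in Pemt+/+, and log2 values correlated at 0.942 to 0.976 between arrays, across probe sets. The probe set of the targeted gene, Pemt, measured 201 to 255 on the Pemt-/- arrays and 4989 to 6045 on the Pemt+/+ arrays, so it goes with the labels on every array; whether it lies in the deleted part is not known here. All 9 measured hepatocyte marker genes were lower in Pemt-/-, 7 of 9 macrophage markers and 8 of 8 proliferation markers were higher, and their values stand beside the proteasome results. The genotype difference was fitted with limma over 27022 probe sets, with the week as a factor, on log2(intensity + 16). A fitted difference is Pemt-/- minus Pemt+/+ on that scale, and a call means an adjusted p under 0.05.

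Some genes of the constitutive proteasome fell by small amounts in Pemt-/- liver, and no gene of the immunoproteasome passed the test. Of the 77 tested probe sets, 13 were called lower and 1 was called higher (limma). The share called lower, 16.9%, stands beside 5.86% of all 27022 probe sets, and the share of all probe sets called higher was 10.3%. The 13 lower calls fell on 10 genes: Psma5, Psma6, Psmb3, Psmb6, Psmc2, Psmc5, Psmc6, Psmd4, Psmd6 and Psmd12. Their fitted differences lay between -0.50 and -0.33, that is, an intensity 1.26-fold to 1.41-fold lower. None of the 5 immunoproteasome probe sets was called by limma in either direction, and 0 of them had an unadjusted p under 0.05.

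Most proteasome probe sets are bright, and brightness itself went with lower calls on these arrays. Among the 6380 tested probe sets with a mean intensity over 1000, 15.9% were called lower and 11.5% higher. The 52 proteasome probe sets of that brightness held all 13 lower calls, which is 25% of them, and none of the higher calls. Their median fitted difference was -0.24, against -0.04 for all bright probe sets, and 43 of the 52 were below 0, where the share of all bright probe sets was 55%. In the 25 tested proteasome probe sets of lower intensity, the median was 0.02, with 0 called lower and 1 called higher by limma, and 6 had an unadjusted p under 0.05.

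**Figure D1:**
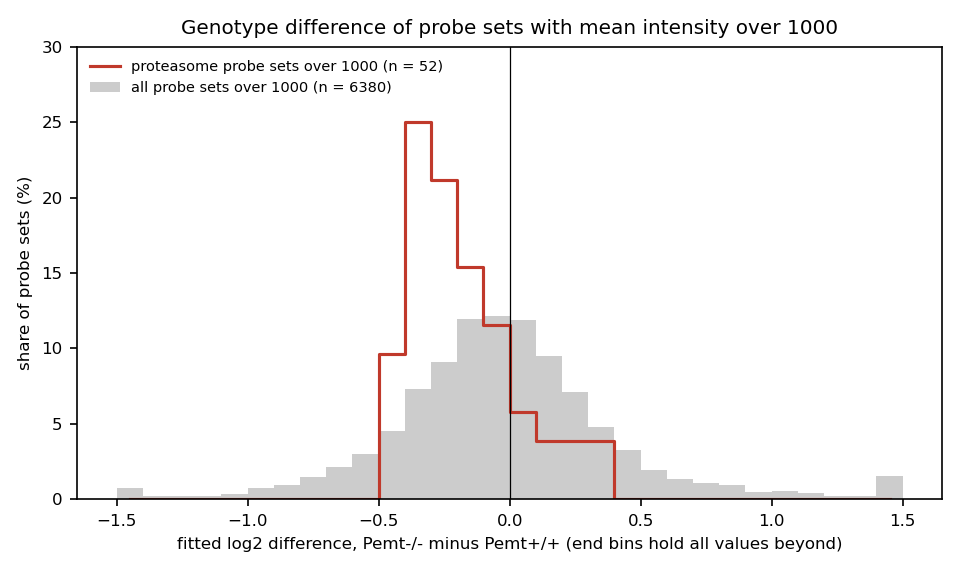
Share of probe sets (vertical axis, %) by fitted log2 difference, Pemt-/- minus Pemt+/+ (horizontal axis, bins of equal width, the end bins holding all values beyond), for probe sets with a mean intensity over 1000. The line of the 52 proteasome probe sets lies mostly left of 0, with a median of -0.24, and the grey bars of all 6380 such probe sets centre on -0.04.

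The arrays of the genotypes did not overlap in many members. In 32 of the 77 tested probe sets all 4 Pemt-/- arrays were below all 4 Pemt+/+ arrays, and in 4 they were all above, where the shares over all tested probe sets were 8.96% and 12.8%. Of the 52 bright members, 30 had the Pemt-/- arrays below, or 57.7%, beside 18.6% of all bright probe sets. In 37 members the Pemt-/- array was the lower one in each of the 4 weeks, beside 16.7% of all tested probe sets. This separation depended on the scaling: after quantile normalization it was found in 20 of 78 members (background 10.5%) and, among the bright ones, in 18 of 52 (background 15.2%).

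Taken as 1 probe set per gene, the one with the highest mean, the 39 tested genes outside the immunoproteasome had a median fitted difference of -0.21, with 31 below 0 (48.2% of all tested probe sets were). Of these genes 8, or 20.5%, were called lower and 0 higher, beside 5.86% and 10.3% of all tested probe sets. Of the bright probe sets, 15.9% were called lower, 11.5% were called higher, and 55% were below 0. The median of the 4 immunoproteasome genes was 0.09, with a range of 0.04 to 0.19. Over all tested probe sets the median was 0.02. The difference between these medians was not tested, because the genes of a complex are no replicates of the genotype. Quantile normalization brought the median of the 39 genes to -0.10, with -0.03 for all probe sets, and left that of the immunoproteasome at 0.09.

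**Figure D2:**
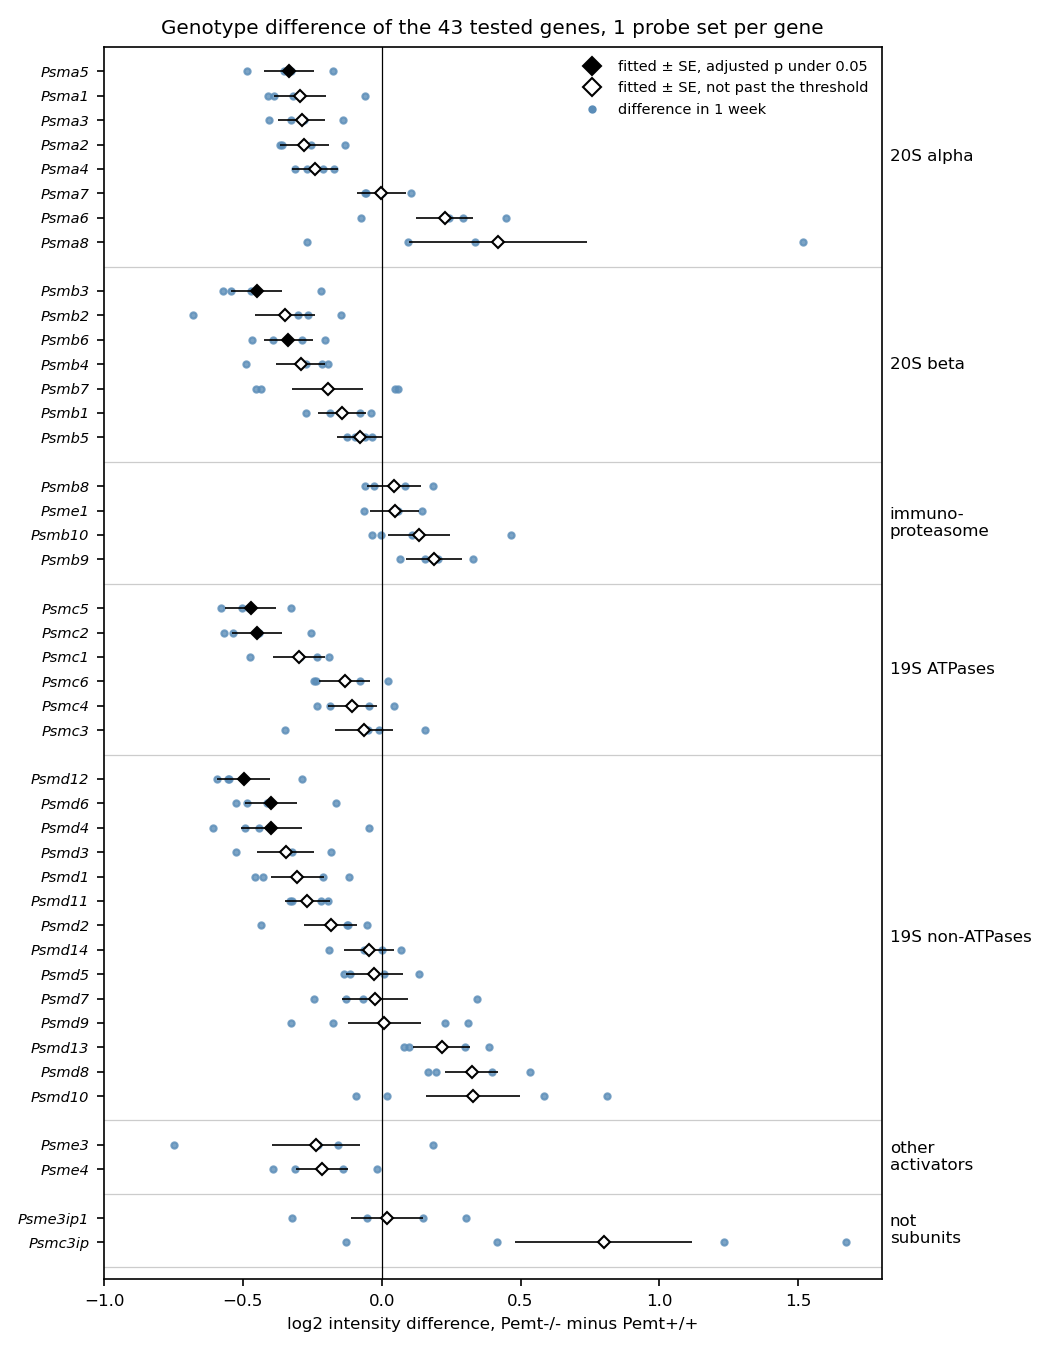
Fitted log2 intensity difference (horizontal axis, Pemt-/- minus Pemt+/+; diamonds with bars of 1 SE, filled where the adjusted p is under 0.05) and the difference in each single week (dots) for the 43 tested genes, 1 probe set per gene, grouped by role. The 8 filled diamonds lie between -0.50 and -0.33, and the 4 immunoproteasome genes lie between 0.04 and 0.19.

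The alpha subunits of the core gave 1 lower call in 8 genes, beside 5.86% of all tested probe sets and 15.9% of the bright ones. Their median was -0.26. Psma5 measured 6319.7, 6584, 6141 and 6959 at weeks 1 to 4 in Pemt-/- and 8066, 7436, 8603 and 8729 in Pemt+/+. All Pemt-/- arrays lay under the Pemt+/+ arrays. The fitted difference was -0.33 (SE 0.09, adjusted p = 0.0355, limma), and in a second, dimmer probe set -0.28 (adjusted p = 0.0948). Psma1, Psma2, Psma3 and Psma4, also lower in each week, had fitted differences of -0.29, -0.28, -0.29 and -0.24 and missed the threshold, Psma3 with an adjusted p of 0.0514. The brightest probe set of Psma7 overlapped between the genotypes, with a 95% interval of -0.20 to 0.20. A second Psma7 probe set, also with overlapping arrays, was lower in Pemt-/- in each week. It stood at -0.25 (95% interval -0.47 to -0.02, adjusted p = 0.125, limma). Psma8, a subunit of the testis, was dim, at 28.9 to 113 over the 8 arrays, and had an adjusted p of 0.419.

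The probe sets of Psma6 disagreed. The probe set of the highest mean, whose name ends in _x_at and which may therefore bind other transcripts too, measured 9159, 10923, 10191 and 10770.5 in Pemt-/- and 9645, 8923, 8609.7 and 7889 in Pemt+/+. It was higher in Pemt-/- in weeks 2, 3 and 4 and had a fitted difference of 0.23 (adjusted p = 0.171, limma). A second probe set measured 5628, 5455, 5136 and 4813 in Pemt-/- and 6793, 7249.9, 7426 and 7651 in Pemt+/+. Here every Pemt-/- array was the lower one and the gap widened week by week, with a fitted difference of -0.47 (SE 0.10, adjusted p = 0.0127). A dim probe set of Psma6, also ending in _x_at, overlapped between the genotypes at 233 to 326 in Pemt-/- and 267 to 324 in Pemt+/+ and stood at -0.11 (adjusted p = 0.648). The direction of Psma6 is thus not settled by these arrays.

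All 7 tested constitutive beta subunit genes had a fitted difference below 0, with a median of -0.29. Of these genes 2 were called lower, beside 5.86% of all tested probe sets and 15.9% of the bright ones. Psmb3, a structural beta subunit, measured 6351, 8269, 6939.9 and 7157 in Pemt-/- and 9266, 9631, 10311 and 9913 in Pemt+/+. The groups did not overlap, although the Pemt-/- array of week 2 came closer to the Pemt+/+ arrays than the others. Psmb3 fell by 0.45 on the log2 scale (SE 0.09, adjusted p = 0.0133, limma), with -0.34 (adjusted p = 0.0556) in its other probe set. Psmb2 and Psmb4, likewise structural, stood at -0.35 and -0.29 with adjusted p of 0.0618 and 0.0564, and Psmb1 at -0.14.

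Of the 3 constitutive proteolytic subunits 1 was called lower, and whether their differences differ from each other was not tested. Psmb6, which encodes the caspase-like subunit, measured 6256, 5878, 5663 and 5798 in Pemt-/- and 7202, 7176, 7828 and 7601 in Pemt+/+. Its arrays did not overlap and it fell by 0.34 on the log2 scale (SE 0.09, adjusted p = 0.0334, limma). Psmb5, the chymotrypsin-like subunit, measured 6369, 6337, 6353 and 6253 in Pemt-/- and 6636, 6501, 6800.2 and 6817 in Pemt+/+. These groups did not overlap either, but the fitted difference was only -0.08, with a 95% interval of -0.27 to 0.11 and an adjusted p of 0.556, and after quantile normalization it was 0.03. Psmb7, the trypsin-like subunit, measured 1405, 1114, 1022 and 1037 in Pemt-/- and 1347, 1532, 988 and 1407 in Pemt+/+. Its groups overlapped, being lower in Pemt-/- only in weeks 2 and 4 (-0.20, 95% interval -0.49 to 0.10).

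The immunoproteasome subunits that stand in for these showed no genotype difference that passed the test. Psmb8, the counterpart of Psmb5, measured 1548, 1785, 1623 and 1843 in Pemt-/- and 1616, 1819.7, 1427 and 1739 in Pemt+/+. The genotypes overlapped and the fitted difference was 0.04 (95% interval -0.18 to 0.27, adjusted p = 0.800, limma), a sign that turned to -0.01 after quantile normalization. A second Psmb8 probe set, at 68.5 to 204 units, stood at -0.42 (adjusted p = 0.291). Psmb9, the counterpart of Psmb6, measured 926, 1787, 1456 and 1655 in Pemt-/- and 885, 1603, 1262 and 1313 in Pemt+/+. It was the higher in Pemt-/- in each week, by a log2 difference of 0.06, 0.16, 0.20 and 0.33, and in both genotypes its lowest array was that of week 1. The fit gave 0.19 (95% interval -0.04 to 0.42, adjusted p = 0.248).

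Psmb10, the counterpart of Psmb7, measured 2199.8, 2641, 2221 and 2116 in Pemt-/- and 2256, 1907, 2058 and 2121 in Pemt+/+. Its one clear gap was in week 2, and the fit gave 0.13 (95% interval -0.12 to 0.39, adjusted p = 0.463, limma). Psme1, the alpha subunit of the interferon-inducible activator, measured 4084, 4032, 4027 and 4082 in Pemt-/- and 3918, 3892, 3642 and 4267 in Pemt+/+. Its Pemt-/- arrays were nearly level, the Pemt+/+ arrays lay on both sides of them, and the fit gave 0.05 (95% interval -0.15 to 0.25, adjusted p = 0.757). In the brightest probe set of each of these 4 genes, the intervals of Psmb9 and Psmb10 reach a rise of 0.33, the size of the smallest lower call. None of these 4 intervals reaches a fall of that size. The interval of the dim second Psmb8 probe set, -0.98 to 0.14, does.

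Set against its constitutive counterpart within each week, Psmb9 had the higher difference between the genotypes in every week, which the other 2 pairs did not show. The log2 difference of Psmb9 minus that of Psmb6 was 0.27, 0.44, 0.67 and 0.72 at weeks 1 to 4 (0.53 ± 0.21, SD, n = 4), above 0 in 4 of 4 weeks. The same quantity for Psmb8 minus Psmb5 was 0.00, 0.01, 0.28 and 0.21, and for Psmb10 minus Psmb7 it was -0.10, 0.92, 0.06 and 0.43. These are differences of differences and say nothing of how the level of one gene compares with another. They were not tested.

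**Figure D3:**
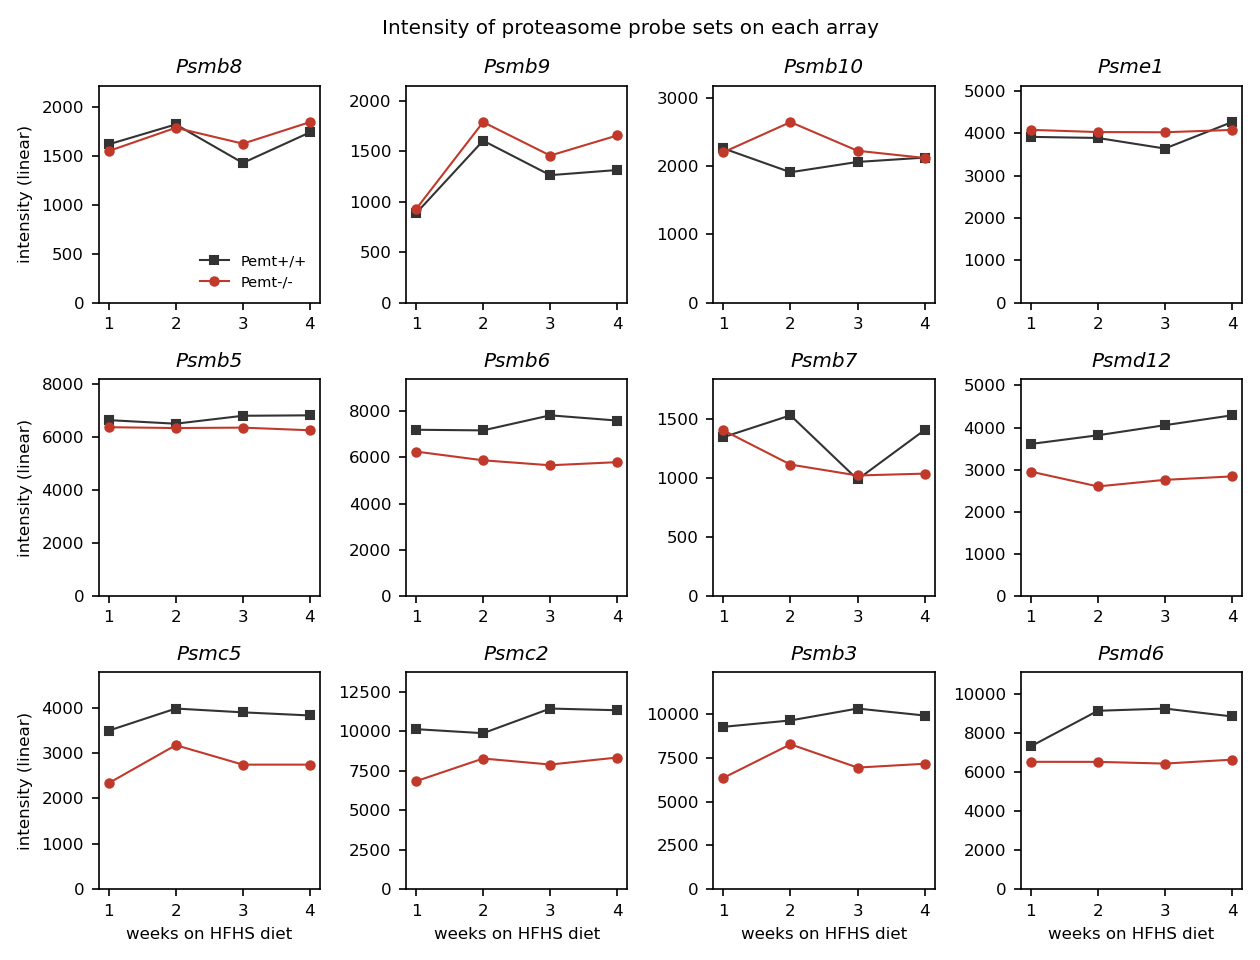
Linear intensity (vertical axes, each from 0) against weeks on the HFHS diet for 12 probe sets, with 1 point for each array, circles for Pemt-/- and squares for Pemt+/+. The lines cross or run together in the top row (Psmb8, Psmb9, Psmb10, Psme1) and in Psmb7, and stay apart in Psmb6, Psmd12, Psmc5, Psmc2, Psmb3 and Psmd6.

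Promoter sequences are shown for 4 of these genes as the stretch of 250 bases before to 50 bases after the transcript start given by RefSeq (GRCm38.p6): Psmb6 as a subunit called lower, Psmb5 as another proteolytic subunit, which was not, and Psme1 and Psmb8 from the immunoproteasome. Capitals mark a match to 1 of 3 motifs searched on both strands. The antioxidant response element, TGACNNNGC, is bound by NFE2L1 and NFE2L2 together with small MAF proteins, and NFE2L1 is known to drive proteasome genes. The interferon-stimulated response element, GAAA followed by any 2 bases and GAAA, and the interferon gamma activated site, TTCNNNGAA, are bound by IRF and STAT proteins. The sequences read 5′ to 3′ on the strand of the gene.
Psmb6, chr11:70525107-70525406, plus strand: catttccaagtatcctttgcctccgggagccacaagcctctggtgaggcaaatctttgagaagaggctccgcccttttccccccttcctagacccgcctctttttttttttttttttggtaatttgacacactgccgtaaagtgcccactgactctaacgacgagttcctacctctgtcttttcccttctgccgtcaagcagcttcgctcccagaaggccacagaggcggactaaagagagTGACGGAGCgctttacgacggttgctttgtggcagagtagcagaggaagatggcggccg
Psmb5, chr14:54617946-54618245, minus strand: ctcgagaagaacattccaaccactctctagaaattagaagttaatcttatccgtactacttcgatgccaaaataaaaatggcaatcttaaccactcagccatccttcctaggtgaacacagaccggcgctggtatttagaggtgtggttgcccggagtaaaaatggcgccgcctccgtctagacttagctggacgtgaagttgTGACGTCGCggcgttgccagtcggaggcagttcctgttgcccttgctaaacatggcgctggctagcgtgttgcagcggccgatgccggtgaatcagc
Psme1, chr14:55578244-55578543, plus strand: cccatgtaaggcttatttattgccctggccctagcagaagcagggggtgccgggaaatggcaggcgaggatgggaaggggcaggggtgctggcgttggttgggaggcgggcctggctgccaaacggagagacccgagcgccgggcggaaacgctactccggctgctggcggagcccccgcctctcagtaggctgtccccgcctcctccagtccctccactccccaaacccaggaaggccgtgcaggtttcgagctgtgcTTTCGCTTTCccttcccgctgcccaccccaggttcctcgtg
Psmb8, chr17:34197945-34198244, plus strand: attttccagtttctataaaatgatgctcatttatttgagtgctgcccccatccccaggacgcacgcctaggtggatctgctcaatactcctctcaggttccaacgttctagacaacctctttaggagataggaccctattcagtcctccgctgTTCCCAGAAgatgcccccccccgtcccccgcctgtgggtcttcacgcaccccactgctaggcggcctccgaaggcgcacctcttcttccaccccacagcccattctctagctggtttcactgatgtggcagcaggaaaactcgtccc

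In Psmb6 the antioxidant response element begins 9 bases before the start and in Psmb5 47 bases before it. Psme1 holds the interferon-stimulated response element on the opposite strand, just after the start, and in Psmb8 the interferon gamma activated site, a palindrome, begins 97 bases before the start. A promoter was listed for 37 of the 44 genes. TGACNNNGC was in 6 of them (Psmb5, Psmb6, Psmc6, Psmd9, Psmd12 and Psme4), beside 12.4% of all 32851 promoters of this length. The interferon-stimulated response element was in 4 (Psmb3, Psmd4, Psmd9 and Psme1; 3.44% of all promoters) and TTCNNNGAA in 2 (Psmb8 and Psmd2; 8.3%). Of the 10 genes with a lower call, all listed with a promoter, 3 held the antioxidant response element (Psmb6, Psmc6 and Psmd12), 2 the interferon-stimulated response element (Psmb3 and Psmd4) and 0 the interferon gamma activated site. Each of the 4 promoters shown holds a match, while Psmb9 and Psmb10, also listed with a promoter, held none of the 3 motifs. A match is a description of the letters only.

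The ATPase ring of the 19S regulator gave 2 lower calls in 6 genes, with a median of -0.22. By probe set it gave 4 lower calls in 10 tested, beside 5.86% of all tested probe sets and 15.9% of the bright ones. All 10 had a fitted difference below 0. Psmc5 (chromosome 11, 106256185 to 106263112) measured 2335, 3172, 2742 and 2743 in Pemt-/- and 3492, 3979, 3895 and 3826 in Pemt+/+. No array of one genotype reached those of the other, and Psmc5 fell by 0.47 on the log2 scale (SE 0.09, adjusted p = 0.0105, limma), with the largest gap in week 1. Psmc2 (chromosome 5, 21785275 to 21803787) measured 6846, 8286, 7903 and 8347 in Pemt-/- and 10148, 9892, 11456 and 11349 in Pemt+/+. Both of its tested probe sets were called lower, at -0.45 (adjusted p = 0.0116) and -0.37 (adjusted p = 0.0294).

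Psmc6 was called lower in 1 of 3 probe sets. That probe set, which by its name can bind transcripts of a gene family, measured 2209, 2588, 2248 and 2638 in Pemt-/- and 2856, 3172, 3551 and 3187 in Pemt+/+, with no overlap, and was at -0.40 (adjusted p = 0.0310, limma). The other probe sets gave -0.47 (adjusted p = 0.0822) and, in the brightest, -0.13 (adjusted p = 0.369). Psmc1 stood at -0.30 with an adjusted p of 0.0654, while Psmc3 and the brightest Psmc4 probe set stood at -0.06 and -0.11 with overlapping arrays. The other Psmc4 probe set, at 3015 to 3217 in Pemt-/- and 3230.1 to 3642 in Pemt+/+, was lower on every Pemt-/- array, at -0.14 (adjusted p = 0.308).

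The 14 non-ATPase (Psmd) genes include the assembly chaperones Psmd9 and Psmd10. Of the 14, 3 were called lower, beside 5.86% of all tested probe sets and 15.9% of the bright ones. A fitted difference below 0 was found in 10 and one above it in 4, and the median was -0.11. Psmd12 (chromosome 11, 107479528 to 107498036), a scaffold subunit of the lid, had the smallest p of all members. It measured 2953, 2601, 2757 and 2839 in Pemt-/- and 3609.7, 3816, 4056 and 4291 in Pemt+/+. The Pemt+/+ arrays were all higher, and Psmd12 was 1.41-fold lower in Pemt-/- (log2 difference -0.50, SE 0.10, adjusted p = 0.00994, limma). Psmd6, another lid subunit, measured 6534, 6531, 6443 and 6644 in Pemt-/- and 7327, 9153, 9268 and 8863 in Pemt+/+. Its Pemt-/- arrays were nearly level while the Pemt+/+ array of week 1 was lower than the later ones, and both probe sets were called lower, at -0.40 (adjusted p = 0.0221) and -0.37 (adjusted p = 0.0218).

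Psmd4, a receptor for ubiquitin chains, measured 3135, 4129, 3194 and 3290.0 in Pemt-/- and 4265, 4264, 4877 and 4633 in Pemt+/+. The Pemt-/- array of week 2 lay close under the Pemt+/+ arrays and the others well below them. Both tested probe sets were called lower, at -0.40 (adjusted p = 0.0424, limma) and -0.39 (adjusted p = 0.0228). Psmd1, Psmd3 and Psmd11 (brightest probe set) stood at -0.30, -0.35 and -0.27, each lower in every week, with adjusted p of 0.0644, 0.0523 and 0.0573. Psmd2, a large subunit of the base, stood at -0.18 (adjusted p = 0.237). Psmd14, the deubiquitinating subunit, stood at -0.05 with overlapping arrays, as did Psmd5 and Psmd7 at -0.03 and -0.02 and Psmd9, an assembly chaperone, at 0.01.

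A few non-ATPase genes leaned the other way. Psmd8, a lid subunit, measured 7177, 6476, 8250.1 and 6782 in Pemt-/- and 5443, 5763, 5687 and 5922 in Pemt+/+. Every Pemt-/- array was above every Pemt+/+ array, and the fitted difference of 0.32 (SE 0.10) had an adjusted p of 0.0523 (limma), which became 0.0209 after quantile normalization. Psmd13, also of the lid, gave the only higher call, in a probe set whose name ends in _x_at. It measured 1052, 1134, 1261 and 1059 in Pemt-/- and 820.2, 727, 747 and 721 in Pemt+/+, without overlap (0.57, adjusted p = 0.0114). The brightest probe set of Psmd13 stood at 0.22 (adjusted p = 0.192) and 2 dim ones at -0.23 (adjusted p = 0.517) and 0.10 (adjusted p = 0.872).

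Psmd11 also had probe sets on both sides of 0. Of its 6 tested probe sets 5 were below 0, at -0.27, -0.34, -0.23, -0.70 and -0.75, none of them called, and 1 was above, at 0.40 (adjusted p = 0.0639, limma), with Pemt-/- at 1725, 1918, 2024 and 2361 and Pemt+/+ at 1704, 1377, 1542 and 1447. Dim probe sets with the sign opposite to the brightest one, none of them called, were also found for Psma1 (0.31), Psma3 (0.04), Psmb1 (0.09), Psmd7 (0.55, all Pemt-/- arrays above), Psmd9 (-0.62 and -0.01), Psme3 (0.12) and Psme4 (0.04 and 0.07). Psmd10, an assembly chaperone also known as gankyrin, stood at 0.33 (adjusted p = 0.229), with Pemt-/- the higher in weeks 1, 3 and 4.

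The other activators gave no call in 7 tested probe sets (limma), and 0 had an unadjusted p under 0.05. Of all tested probe sets 5.86% were called lower and 10.3% higher. Psme4, which encodes a large single-chain activator of the core, stood at -0.21 (95% interval -0.43 to 0.00) in its brightest probe set. Psme3, which encodes a nuclear activator, stood at -0.24 (95% interval -0.60 to 0.12). The genes that only share a name with subunits were Psmc3ip, a recombination factor, at 0.80 (adjusted p = 0.126) on 30.9 to 142 units, and Psme3ip1 at 0.02.

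Within single weeks the comparison has 1 array per genotype and no test. Of the 39 tested genes outside the immunoproteasome, 28, 32, 29 and 30 were lower in Pemt-/- at weeks 1, 2, 3 and 4, where 45.7%, 51%, 48.3% and 47% of all tested probe sets were. The median log2 difference of these genes was -0.16, -0.19, -0.19 and -0.32, and that of the 4 immunoproteasome genes 0.01, 0.10, 0.16 and 0.04. Few differences were large. Of the 77 tested probe sets, 1, 0, 2 and 4 had a Pemt-/- to Pemt+/+ ratio of 0.5 or less at weeks 1 to 4, where 4.09%, 5.66%, 5.61% and 5.85% of all tested probe sets did. A ratio of 2 or more was found in 3, 0, 1 and 2 of them, where 7.56%, 6.5%, 9.79% and 10.2% of all tested probe sets had one.

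Whether the course over the diet differed between the genotypes was fitted with the week as a number. No member was called for a difference in change per week (limma, lowest adjusted p = 0.687), with 2 of 77 at an unadjusted p under 0.05, and the same fit called 0 of 27022 probe sets, with 0% as the background. The median change per week of the 39 genes was 0.04 in Pemt+/+ and -0.01 in Pemt-/- on the log2 scale. The larger median gap of week 4 rests on 1 array per genotype.

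**Figure D4:**
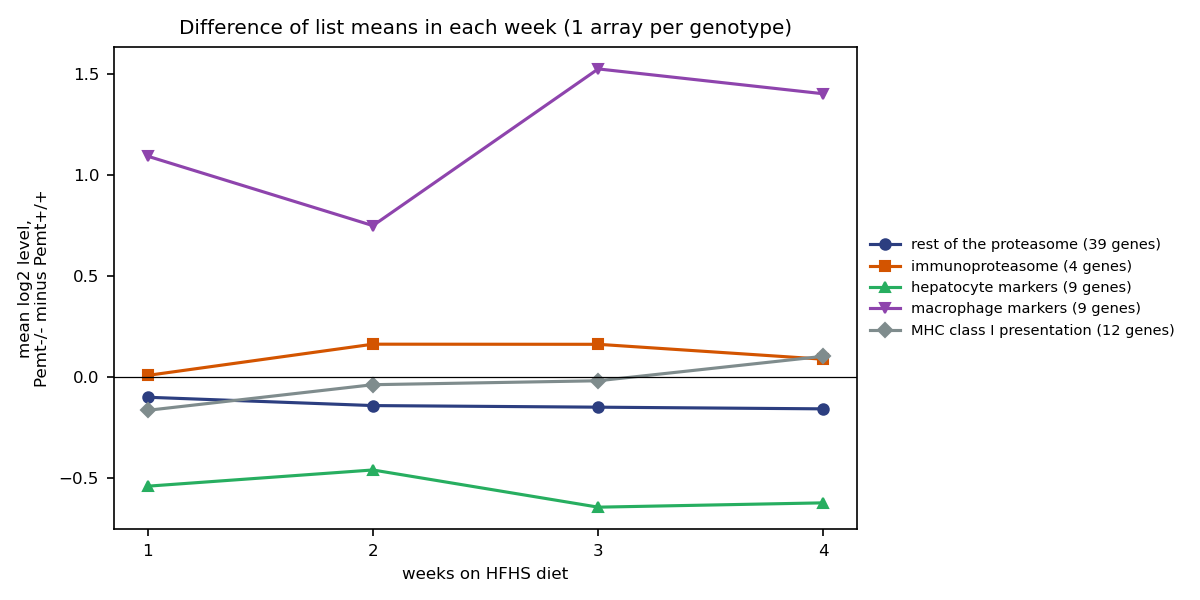
Mean log2 level of a gene list on the Pemt-/- array minus that on the Pemt+/+ array (vertical axis) at each week of the HFHS diet (horizontal axis), 1 array per genotype and week, no error bars. The 39 other proteasome genes run from -0.10 to -0.16, the 4 immunoproteasome genes from 0.01 to 0.16, hepatocyte markers from -0.65 to -0.46 and macrophage markers from 0.75 to 1.52. The mean of the 39 genes includes the dim Psma8 and Psmc3ip.

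Of 18 measured genes for assembly and proteasome-bound factors, 1 was called lower and 2 higher (limma), shares close to the background of 5.86% and 10.3% of all tested probe sets. Pomp, which encodes the maturation protein of the core, measured 6101, 7648, 6934 and 6841 in Pemt-/- and 8558, 8916, 9503 and 9058 in Pemt+/+, without overlap, and fell by 0.39 on the log2 scale (adjusted p = 0.0183). Zfand5 and Zfand2a, whose products bind the proteasome and are known from protein stress, rose by 0.56 (adjusted p = 0.00756) and 0.79 (adjusted p = 0.0275). Akirin2, which helps import proteasomes into the nucleus, was at 0.29 (adjusted p = 0.0749). The core chaperones Psmg1 to Psmg4 and the deubiquitinases Usp14 and Uchl5 gave no call.

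Of 7 measured genes around NFE2L1, the transcription factor that drives proteasome genes, 2 were called higher and 1 lower (limma). The shares of all tested probe sets were 10.3% and 5.86%. Nfe2l2 measured 6921, 5356, 6643 and 5778 in Pemt-/- and 3710.4, 3330.3, 3296 and 3553 in Pemt+/+, all Pemt-/- arrays above the others, and rose by 0.82 on the log2 scale (SE 0.10, adjusted p = 0.00151, limma). Mafk, a small MAF partner, rose by 1.06 (adjusted p = 0.00726). Nfe2l1 stood at 0.37 and missed the threshold (adjusted p = 0.0673), although it was higher in each week. Vcp, the ATPase that extracts NFE2L1 and other ubiquitinated proteins, fell by 0.31 (adjusted p = 0.0336). Ubd, which encodes the ubiquitin-like modifier FAT10 and is induced by inflammatory cytokines, measured 655, 675, 2075 and 2167 in Pemt-/- and 46.1, 128, 73.8 and 54.6 in Pemt+/+. It rose 13.9-fold (adjusted p = 0.000899), and of the ubiquitin list only Uba6, at -0.01, was measured besides it.

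The MHC class I presentation genes, which act after the immunoproteasome, were divided, with 2 of 12 called higher and 3 lower (limma), beside the same background. Higher were Tapbp, at 0.46 (adjusted p = 0.0267), and Tap1, at 0.46 (adjusted p = 0.0435), a peptide transporter gene that lies next to Psmb9 and was picked out after its value was seen. Tap1 measured 573, 865, 810.0 and 896 in Pemt-/- and 520.4, 639, 533 and 549.6 in Pemt+/+. Lower were the chaperones Calr, at -0.59 (adjusted p = 0.00613), and Pdia3, at -0.65 (adjusted p = 0.0128), and B2m, at -0.30 (adjusted p = 0.0308), which went to 0.03 after quantile normalization. Of 7 tested interferon regulators 3 were called higher and none lower, beside 10.3% and 5.86% of all tested probe sets. The 3 were Irf8 at 1.23 (adjusted p = 0.00177, limma), Ifngr2 at 1.19 (adjusted p = 0.00491) and Jak1 at 0.37 (adjusted p = 0.0421). Irf1, which drives immunoproteasome genes, was at 0.07 (adjusted p = 0.712), and Ifng itself was too dim to test.

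Markers of cell types and of proliferation moved between the genotypes on the same arrays. The mean log2 level of the 9 hepatocyte markers differed by -0.54, -0.46, -0.65 and -0.62 at weeks 1 to 4, beside -0.10, -0.14, -0.15 and -0.16 for the 39 proteasome genes. These 39 include the dim Psma8 and Psmc3ip, with single differences of 1.52 (week 4) and 1.67 (week 1). The median difference of the 39 genes was -0.16, -0.19, -0.19 and -0.32 at weeks 1 to 4. The 9 macrophage markers differed by 1.09, 0.75, 1.52 and 1.40. Of 7 tested lymphocyte and dendritic markers 2, Itgax and Ptprc, were called higher, beside 10.3% of all tested probe sets. The other 5 were not called, among them Cd79b (adjusted p = 0.175, limma) and Cd8a (adjusted p = 0.385). A further 5 of the 12 measured, Cd3e, Cd3g, Cd4 and Cd79a among them, were too dim to test. On single arrays the mean log2 level of the hepatocyte list was 13.74 to 14.00 in Pemt-/- and 14.35 to 14.46 in Pemt+/+, and that of the macrophage list 10.51 to 10.83 and 9.18 to 9.76. The 8 proliferation markers, of which all were called higher, with a median fitted difference of 2.60, differed by 2.34, 1.41, 3.09 and 2.60 at weeks 1 to 4, the largest shift of these lists. Their mean log2 level was 9.57 to 10.13 in Pemt-/- and 6.54 to 8.16 in Pemt+/+. The genotype differences of the immunoproteasome genes, at 0.01, 0.16, 0.16 and 0.09, stayed far below those of the macrophage markers. The part of the cell types and of proliferation in either proteasome result was not tested.

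The lower calls rest on a narrow margin of the test. Without the arrays of week 3, and likewise without those of week 4, limma called 0 members lower (18 and 16 at an unadjusted p under 0.05), and without week 1 and week 2 it called 9 and 17. With eBayes without the intensity trend the count was also 0, with 21 at an unadjusted p under 0.05. The share of all tested probe sets called in these fits was not counted. A loss of calls in the members therefore cannot be told apart from one over the whole array. The fitted difference of each of the 8 genes stayed below 0 in all of these fits.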

How the data were processed

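Linear intensities of 45101 probe sets on 8 Affymetrix arrays were used as deposited by the authors, who per the labels used Affymetrix Expression Console (version and probe summary method: not given in the sources used here). They had scaled each array to a trimmed mean of 500 (2% left out at each end). After 64 control probe sets were removed, genes were named from the platform annotation (34945 probe sets with 1 gene, 932 with several, 9160 with none), and 34741 were matched to RefSeq, all 91 members among them. Probe sets with a mean log2(intensity + 16) above the 40th percentile were fitted with limma 3.58.1 in R 4.3.3 (week as a factor, then genotype, eBayes with trend, two-sided, Benjamini-Hochberg over 27022). With the week in the model, p-values measure how the difference between the genotypes spreads over the 4 weeks, with 1 array per genotype and week. Each probe set has 3 residual degrees of freedom, to which eBayes adds from all probe sets fitted. The number of arrays limits the precision. Arrays of the same week are paired by the time point the labels give; their deviations correlated at 0.11, -0.02, -0.03 and 0.11. The genes named were the immunoproteasome genes, their constitutive counterparts, the 12 other members with the smallest p, the 3 largest and the 3 smallest fitted differences, every member called for the change per week, up to 4 genes with the smallest p of each other list, and the tested probe sets of genes whose probe sets disagreed; other genes are named beside them. The members, lists and tests were chosen with earlier results of these data known. The fits were tested on simulated data.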

Additional observations from a re-analysis of the deposited data

How the results depend on the processing

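The count of members called lower was 13, and 9 to 18 with other filters (no filter, 60th percentile), pseudocounts of 1 and 64, quantile normalization, median centring, 1 probe set per gene, or without probe sets ending in _s_at or _x_at. It was 0 with eBayes without the trend, 24 with no replicate block (the week left out of the model), and 34 by the methods' t-test at an unadjusted p under 0.05 (19 after Benjamini-Hochberg). Leaving out 1 week gave 0 to 17 lower calls and 0 to 3 higher calls. The 1 higher call became 2 with no filter and with the 60th percentile, 3 with quantile normalization and with no replicate block, 7 by the t-test at an unadjusted p under 0.05, and 0 without _s_at and _x_at probe sets. The median difference of the genes outside the immunoproteasome moved from -0.21 to -0.10 with quantile normalization; that of the immunoproteasome genes ran from 0.06 to 0.14 over all settings. The call of 0 immunoproteasome probe sets, and of 0 members for the change per week, did not change in any setting run. The fits without a week also have fewer arrays, and the cause of the shifts between settings was not tested. Of all tested probe sets, 5.86% were called lower as deposited, 6.41% after quantile normalization and 4.88% after median centring. The shares called higher were 10.3%, 8.64% and 10.9%. For the other settings these shares were not counted. B2m, called lower, went to 0.030 with quantile normalization, and Psmb8, Psmb5 and Uba6, not called, also changed sign in 1 or 2 settings. Without probe sets of several genes, Psme2 could not be followed. The settings on _s_at and _x_at names, on Psmc3ip and Psme3ip1, and on the mean of a gene's probe sets were chosen after seeing the data. Among the 22 named member genes, no array stood apart from its group of 4 (0 of 44 groups).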
